A study of Mus musculus with 21 samples.

Results

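Aldh1a1, Dpep1, Cyp2e1 and Mup5 are 4 genes whose signal in the sciatic nerve was far higher in adult than in newborn WT mice. They were selected on measured values, the strong rise of each from day 4 (P4) to day 60 (P60) in WT (wild-type) mice, and every probe set annotated with 1 of these symbols alone was taken. That gave 5 of the array's 12422 probe sets, for 4 of the 8251 genes that have such a probe set. Of these, 4 passed the filter on low values and were tested. The other one, a further Aldh1a1 probe set, lay at or below the floor on every array.

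Each of the 21 Affymetrix arrays carried RNA from the pooled sciatic nerves of 4 to 7 mice, so its spread is that of pools. The P60 groups were KO (homozygous null for Pmp22), TG (carrying a Pmp22 transgene) and TR (the Trembler mutation of Pmp22), with 2 arrays each, and WT on a mixed background, with 3 arrays. The same 4 genotypes were measured at P4 with 3 arrays each. Pmp22 encodes a membrane protein of compact myelin, and its dosage or point mutation underlies inherited neuropathies. The labels used here do not name the zygosity of TG and TR, the copy number of the transgene or the sex of the mice. The deposited value is the authors' expression index, a linear intensity per probe set. Values under 54.7, the 20th percentile of all values, were raised to that floor before log2 was taken. Log2 changes are fitted differences on that scale with their standard error (SE), and a change was called where its p, adjusted by Benjamini-Hochberg over all 10994 tested probe sets, was under 0.05 in limma.

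Bright Schwann cell genes were read on every array: Mbp, a major myelin protein, had an index between 2996 and 5950 on all 21 arrays, and Egr2, the factor that drives myelination, between 2061 and 6414. They are 2 of 13 listed genes of myelinating Schwann cells on the array, and others were dim. Cnp read 12.6 to 35.1, below the floor on every array, and Gjb1 52.9 to 158. Mag had 592, 565 and 646 in P4 WT and 247, 311 and 165 in P60 WT. The Pmp22 probe set read 4797 to 5679.8 on the KO arrays, 6606 to 8553 in TG, 5469 to 7383 in TR and 6732 to 7682 in WT, both ages together, and the part of the gene it covers is unknown here, so it does not check the labels. The share of probe sets above the floor lay between 78.6% and 81.2% per array. The array P60_KO_2 stood apart with 167 values at or below 0, against 68 to 120 on the other 20 arrays. Skeletal muscle markers (24 genes) summed to between 4439 and 17685 on the P60 mutant arrays, against 22388 to 34702 in P60 WT, and their part in the differences from WT was not tested. The arrays were scanned on 10 days, none of which held 2 of the mutants at P60 or both ages of 1 mutant. Scan day and genotype could therefore be separated only through other groups. For P60 TG they could not be separated at all, since its scan day held no other group. Fewer cells of a type and less RNA per cell cannot be told apart in these pooled tissue samples.

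The 4 genes encode proteins of small-molecule metabolism and transport. Aldh1a1 is a cytosolic aldehyde dehydrogenase that makes retinoic acid from retinal. Dpep1 is a membrane-bound dipeptidase that splits the cysteinylglycine left from glutathione and converts leukotriene D4 to E4. Cyp2e1 is a cytochrome P450 of the endoplasmic reticulum that oxidises ethanol, acetone and other small molecules, and Mup5 belongs to the major urinary proteins, lipocalins made chiefly in liver and glands that carry small volatile ligands. In the peripheral nerve the first weeks of life cover the end of axon sorting and much of myelin growth, while the fibroblasts, vessels and fat around the fascicles also mature.

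The promoters of the genes that rose with age are shown because they are the sequences next to that change. The table of RefSeq promoters used here (GRCm38.p6) covers 3 of the 4 genes, all on the forward strand: Cyp2e1 on chromosome 7, Dpep1 on chromosome 8 and Aldh1a1 on chromosome 19, the last with 2 annotated starts. The 250 bases before each start are printed, 5′ to 3′. Capitals mark matches to any of 7 motifs, searched on both strands in the 300 bases that end 50 bases after the start, each spelled out after the sequences.
Cyp2e1, chr7:140763569-140763818: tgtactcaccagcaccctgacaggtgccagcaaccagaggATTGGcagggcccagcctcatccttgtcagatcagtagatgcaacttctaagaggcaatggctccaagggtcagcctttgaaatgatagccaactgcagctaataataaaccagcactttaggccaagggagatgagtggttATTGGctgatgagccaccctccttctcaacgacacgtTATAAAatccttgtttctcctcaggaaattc
Aldh1a1, distal start, chr19:20492333-20492582: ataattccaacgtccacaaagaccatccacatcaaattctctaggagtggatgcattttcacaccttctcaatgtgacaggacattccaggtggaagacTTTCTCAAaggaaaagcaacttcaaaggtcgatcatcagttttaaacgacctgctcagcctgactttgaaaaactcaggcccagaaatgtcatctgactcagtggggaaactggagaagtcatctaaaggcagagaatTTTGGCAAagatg
Aldh1a1, second start, chr19:20601718-20601967: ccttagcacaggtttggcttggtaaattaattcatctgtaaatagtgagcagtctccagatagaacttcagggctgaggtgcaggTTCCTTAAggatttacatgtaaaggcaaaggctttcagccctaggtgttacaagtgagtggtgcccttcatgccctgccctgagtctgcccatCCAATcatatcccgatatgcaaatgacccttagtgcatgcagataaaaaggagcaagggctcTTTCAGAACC
Dpep1, chr8:123185985-123186234: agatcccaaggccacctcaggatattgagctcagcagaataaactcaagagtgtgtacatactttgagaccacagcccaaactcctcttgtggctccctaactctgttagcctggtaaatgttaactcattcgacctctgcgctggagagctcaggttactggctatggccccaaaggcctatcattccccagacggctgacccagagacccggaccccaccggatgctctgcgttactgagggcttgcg

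Cyp2e1 had a TATA box match, TATAAA, beginning 31 bases before its start, and this motif stands in 13.6% of 32851 RefSeq promoters of this length. It also had 2 matches to the CCAAT box, CCAAT, which stands in 37.4% of promoters. The distal Aldh1a1 promoter had 2 matches to the C/EBP core, TTNNGNAA, which stands in 40.7% of promoters. The second Aldh1a1 promoter had 2 matches to the C/EBP core and 2 to the CCAAT box, of which 1 runs across the start, so that only its first bases are printed. No match to any of the 7 motifs stood in the Dpep1 window. The other motifs were in none of these 4 windows. They are the GC box GGGCGG, in 35.7% of promoters, and the nuclear receptor element AGGTCA, in 16.3%. The HNF1 element GTTAAT is in 7.1% of promoters, and the glucocorticoid receptor element AGAACA in 19.0%. No matches of different motifs overlapped. A match is a description of letters and not a binding site. Mup5 lies on chromosome 4.

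In WT, the contrast that selected the genes, the log2 changes from P4 to P60 were 5.08 ± 0.22 for Aldh1a1, 4.64 ± 1.0 for Mup5, 4.62 ± 0.31 for Dpep1 and 4.44 ± 0.38 for Cyp2e1 (estimate ± SE). They ranked 3, 6, 7 and 8 among 10994 probe sets, of which 10.5% were called higher in WT. The named probe sets of other genes nearest to them were Pvalb at 4.74, inside that range, and Myh4 at 4.41, just below it, both known from skeletal muscle. These figures describe the choice and are not tested.

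By group mean, the 4 genes parted in how far each mutant reached the adult WT level. These means rest on 2 arrays per mutant and were not tested against WT. Aldh1a1 rose in all 3 mutants, to group means between 60.6% and 68.3% of WT. Dpep1 rose in all 3, to 103% of the WT mean in KO, 45.1% in TG and 67.4% in TR. Cyp2e1 rose in all 3, to 104% in TG and 61.3% in TR, against 23.9% in KO, where the call rested on P60_KO_1. Mup5 rose in TG and did not pass the test in KO or TR. Between mutants at P60, 3 of 12 differences passed the threshold, and each of these leaned on single arrays.

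**Figure D1:**
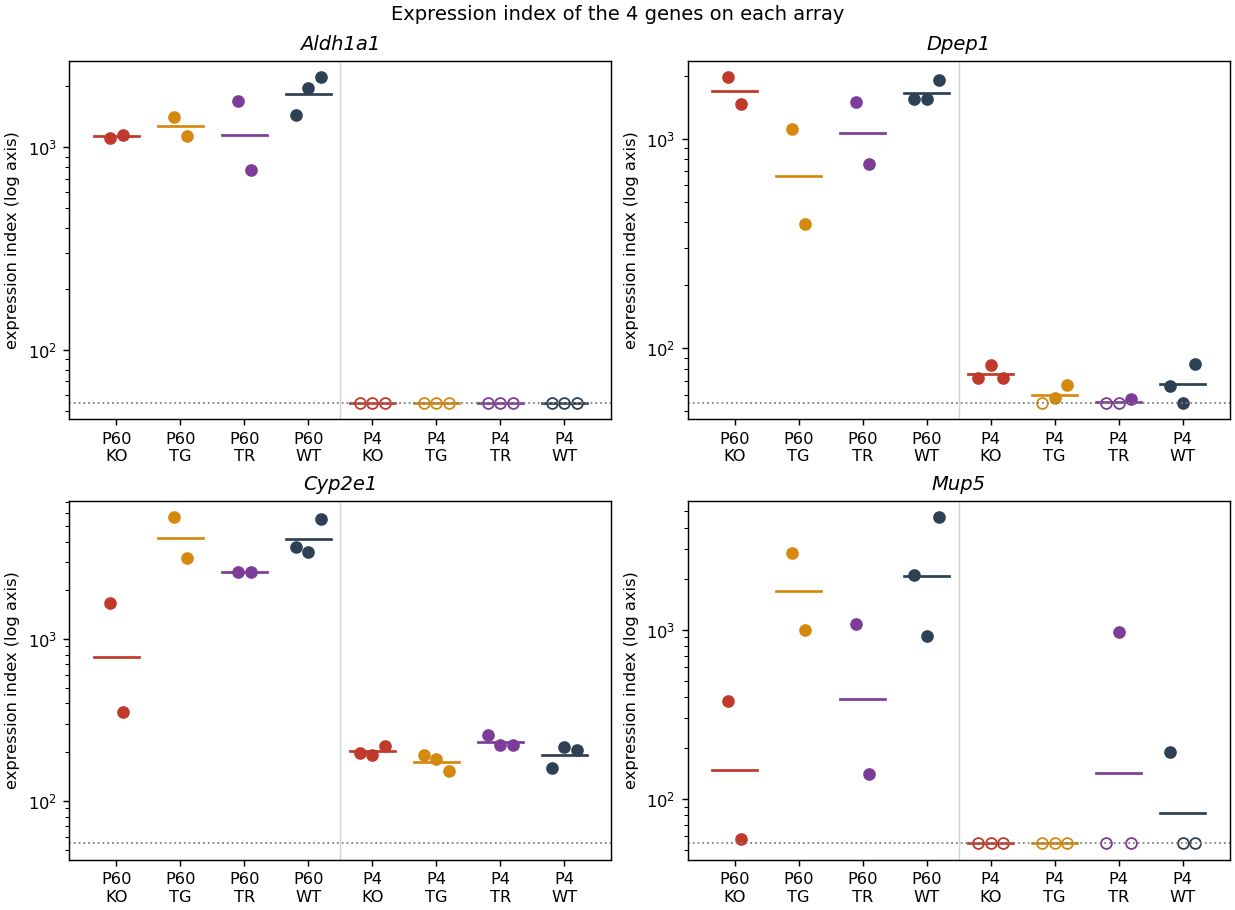
Expression index on each array (log axis) for Aldh1a1, Dpep1, Cyp2e1 and Mup5, with P60 groups on the left and P4 groups on the right of each panel. Points are arrays, open points are values at or below the floor of 54.7 (dotted line) drawn at the floor, and bars are group means on the log2 scale. Every Aldh1a1 value at P4 lies at the floor, and the 2 Cyp2e1 points of P60 KO lie below all other P60 points.

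Aldh1a1 had an index of 1115 and 1157 in P60 KO, 1418 and 1141 in P60 TG, 1705 and 772 in P60 TR, and 1440.5, 1964 and 2217 in P60 WT. Its P4 values ran from -5.02 to 40.1 over all 12 arrays, all of them below the floor. The P60 and P4 arrays therefore did not overlap in any genotype, and the mutants' P60 arrays overlapped with each other.

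Because P4 lay at the floor, the rises of Aldh1a1 are lower bounds. They were at least 20.8-fold in KO (log2 change 4.38 ± 0.25, adjusted p = 8.19e-09, limma), 23.2-fold in TG (4.54 ± 0.25, adjusted p = 6.78e-09) and 21-fold in TR (4.39 ± 0.25, adjusted p = 2.33e-08). All P4 arrays were set to the same floor value, so they had no spread. In the shared fit this lowers the SE, intervals and p-values of Aldh1a1. Among all 10994 probe sets, 11.9% were called higher with age in KO, 7.35% in TG and 8.03% in TR. Of the 3 P60 WT arrays, 2 read above every mutant array. As a share of the P60 WT mean, Aldh1a1 reached 60.6% ± 1.59 in KO, 68.3% ± 10.5 in TG and 66.1% ± 35.2 in TR (SD, n = 2 each), with WT itself at 100% ± 21.1 (SD, n = 3). The log2 differences from P60 WT were -0.70 ± 0.25 in KO, -0.54 ± 0.25 in TG and -0.68 ± 0.25 in TR, given with no test since the WT arrays chose the gene. Summed markers of other cells also separated the P60 mutants from P60 WT: endothelium at 5919 to 8807 on the mutant arrays against 10776 to 12704 in WT, smooth muscle and pericytes at 3628 to 5855 against 5987 to 6216, and immature or repair Schwann cells at 8632 to 10045 against 4227 to 5237. Their part in the differences from WT was not tested for any of the 4 genes. The second Aldh1a1 probe set read 11.9 to 44.6 over all arrays, so it adds no measurement of the change.

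Dpep1 had an index of 1962 and 1461 in P60 KO, 1115 and 391 in P60 TG, 1490.5 and 758 in P60 TR, and 1544, 1550.5 and 1913 in P60 WT. At P4 it had 72.1, 83.2 and 72.0 in KO, 39.7, 58.0 and 67.1 in TG, 37.2, 14.7 and 57.5 in TR, and 66.4, 54.7 and 84.4 in WT. The lowest P60 array, P60_TG_2, was still far above the highest P4 array, and 3 of the 12 P4 arrays lay at the floor. The KO and WT arrays interleaved at P60, while both TG and both TR arrays lay below all 3 WT arrays.

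The rise of Dpep1 was 22.4-fold in KO (log2 change 4.49 ± 0.34, adjusted p = 2.29e-07, limma), at least 11.1-fold in TG (3.47 ± 0.34, adjusted p = 4.78e-06) and at least 19.1-fold in TR (4.26 ± 0.34, adjusted p = 8.83e-07). The TG and TR values are lower bounds because 1 of 3 P4 arrays in TG and 2 of 3 in TR lay at the floor, and a floor at the 10th percentile gave 3.62 and 4.78. The TG change was 2.71 (adjusted p = 0.000125) without P60_TG_1 and 4.22 (adjusted p = 9.66e-07) without P60_TG_2. In TR this call was lost with scan day as a fixed block (3.84, adjusted p = 0.194). The share of the P60 WT mean was 103% ± 21.2 in KO, 45.1% ± 30.7 in TG and 67.4% ± 31.0 in TR (SD, n = 2 each), against 100% ± 12.6 in WT (SD, n = 3). The log2 differences from P60 WT were 0.03 ± 0.34, -1.33 ± 0.34 and -0.64 ± 0.34 in KO, TG and TR, with no test.

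Cyp2e1 had an index of 1681 and 353 in P60 KO, 5647 and 3186 in P60 TG, 2604 and 2603 in P60 TR, and 3732, 3456 and 5562 in P60 WT. Its P4 arrays, none at the floor, read between 154 and 254: 193 to 217 in KO, 154 to 192 in TG, 220.0 to 254 in TR and 159 to 214 in WT. TG and WT interleaved at P60, both TR arrays lay below them, and both KO arrays lay below TR. The lower KO array, P60_KO_2, was the array with the most values at or below 0.

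The rise of Cyp2e1 was 3.80-fold in KO (log2 change 1.93 ± 0.42, adjusted p = 0.00277, limma), 24.3-fold in TG (4.60 ± 0.42, adjusted p = 1.91e-06) and 11.2-fold in TR (3.49 ± 0.42, adjusted p = 4.74e-05). In KO the call rested on P60_KO_1, with 0.80 (adjusted p = 0.0519) without that array and 3.05 without P60_KO_2. It was lost, too, with scan day as a fixed block (2.25, adjusted p = 0.191) and in a fit on the compared groups alone (adjusted p = 0.123), and the TR call was lost with the scan-day block (2.98, adjusted p = 0.448). The share of the P60 WT mean was 23.9% ± 22.1 in KO, 104% ± 40.9 in TG and 61.3% ± 0.0101 in TR (SD, n = 2 each), against 100% ± 26.9 in WT (SD, n = 3). The log2 differences from P60 WT were -2.43 ± 0.42, 0.03 ± 0.42 and -0.67 ± 0.42 in KO, TG and TR, with no test. By array, KO reached 39.6% and 8.30% of the WT mean.

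Mup5 had an index of 380.3 and 58.1 in P60 KO, 2844 and 995 in P60 TG, 1081 and 141 in P60 TR, and 2102, 917 and 4604 in P60 WT. At P4, 10 of the 12 arrays lay at the floor, and the exceptions were P4_TR_2 with 967 and P4_WT_1 with 189.7. The probe set is of the family type, and RefSeq holds 22 protein-coding Mup genes, all on chromosome 4, so its signal may come from several of them. In P60 WT the lowest array was at 36.1% and the highest at 181% of the group mean.

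The rise of Mup5 passed the threshold in TG (log2 change 4.94 ± 1.12, adjusted p = 0.0080, limma), where all P4 arrays lay at the floor, a rise of at least 30.7-fold. It missed the threshold without P60_TG_1 (4.19, adjusted p = 0.114) and was 5.70 without P60_TG_2 (adjusted p = 0.0283). In KO the change was 1.44 ± 1.12 (adjusted p = 0.363) with a 95% interval of -0.93 to 3.81, and in TR 1.45 ± 1.12 (adjusted p = 0.438) with an interval of -0.91 to 3.82. All 3 P4 arrays of KO and 2 of 3 in TR lay at the floor, so these values depend on where it is set: at the 10th percentile they were 2.44 (adjusted p = 0.176) in KO and 2.12 (adjusted p = 0.319) in TR. The TR value was 2.84 (adjusted p = 0.0871) without P4_TR_2, the array high at P4, and -0.013 without P60_TR_1. Fitting scan day as a fixed block turned its sign, to -1.57. The KO value was 0.088 without P60_KO_1 and 2.80 without P60_KO_2. The share of the P60 WT mean was 8.63% ± 8.96 in KO, 75.5% ± 51.4 in TG and 24.0% ± 26.1 in TR (SD, n = 2 each), against 100% ± 74.1 in WT (SD, n = 3). The log2 differences from P60 WT were -3.80 ± 1.12, -0.30 ± 1.12 and -2.41 ± 1.12 in KO, TG and TR, with no test.

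Both probe sets of Mup3, a sister gene, are of the family type too. The brighter had 534 and 646 in P60 KO, 1089 and 646 in P60 TG, 651 and 663 in P60 TR, and 1073, 590.2 and 1221 in P60 WT, with 294 to 553 over the 12 P4 arrays. The dimmer had 6.67 and 11.5 in P60 KO, 299.5 and 85.3 in P60 TG, 70.9 and 9.24 in P60 TR, and 256, 48.7 and 915 in P60 WT. On both, P4_TR_2 was the highest P4 array, at 553 and 53.2, as it was for Mup5. On that array Alb, which encodes serum albumin, stood at 221, its highest value of the 21 arrays, and 24 liver plasma protein genes summed to 5541, the highest of all arrays, against 3810 to 5085 for the other P4 arrays. The part of this in the Mup5 values was not tested.

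**Figure D2:**
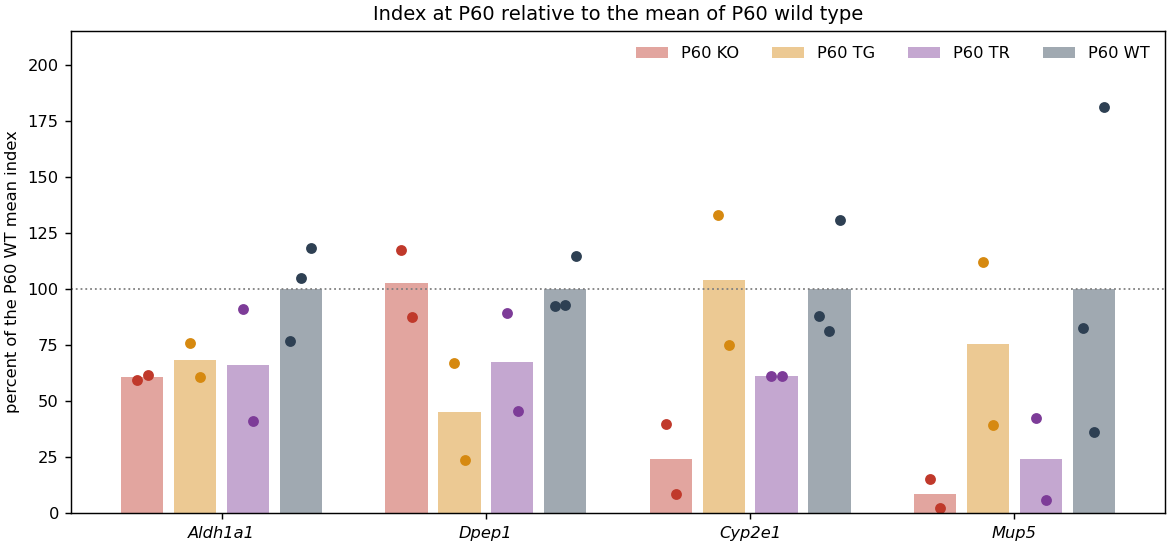
Index at P60 as a percent of the P60 WT mean, for each gene in KO, TG, TR and WT. Bars are group means, points are arrays, and the dotted line marks 100%. Mean shares in KO are 60.6% for Aldh1a1, 103% for Dpep1, 23.9% for Cyp2e1 and 8.63% for Mup5.

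Across the 12 tests of a rise with age in a mutant (4 genes in 3 mutants), 10 passed the threshold: 3 of 4 in KO, 4 of 4 in TG and 3 of 4 in TR. That is above the share of all probe sets called higher in each mutant, but the genes were chosen for the same change in WT nerve. At P4 the log2 differences of the mutants from WT, given with no test, were 0 for Aldh1a1 by the floor, between -0.28 and 0.16 for Dpep1 and between -0.14 and 0.27 for Cyp2e1. For Mup5 they were -0.60 in KO and TG and 0.78 in TR, where P4_TR_2 and P4_WT_1 were the arrays above the floor.

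**Figure D3:**
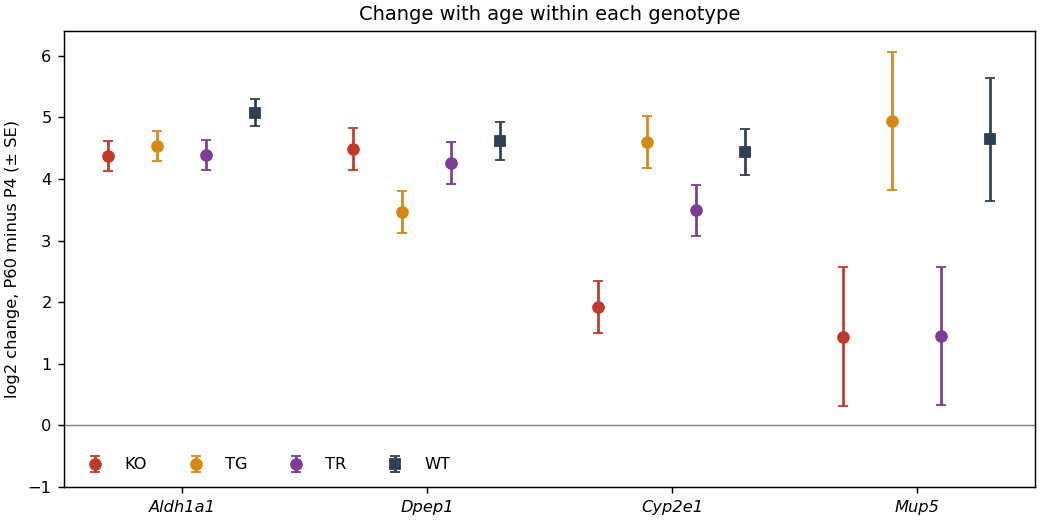
Log2 change from P4 to P60 (P60 minus P4) with its SE, for each gene within KO, TG, TR (circles) and WT (squares, the contrast that chose the genes). The Cyp2e1 change is 1.93 in KO, against 4.60 in TG and 3.49 in TR; Aldh1a1 lies between 4.38 and 4.54 in the mutants.

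The mutants were compared with each other at P60, a contrast that holds no WT array. Of 12 differences (3 pairs for 4 genes, p-values adjusted over all 10994 probe sets of each contrast), 3 passed the threshold, 2 of them for Cyp2e1 and 1 for Dpep1. Among all probe sets, 6.68% were called between KO and TG, 6.73% between TR and KO and 1.31% between TR and TG, in either direction. The TR and TG contrast called 0 of the 4 genes, and 0 had an unadjusted p under 0.05 in limma.

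Cyp2e1 was lower in KO than in TG by 2.46 on the log2 scale (log2 difference -2.46 ± 0.46, adjusted p = 0.00509, limma), 0.182 times the TG level. It was 3.38-fold higher in TR than in KO (1.76 ± 0.46, adjusted p = 0.0298), and between TR and TG the difference was -0.70 (95% interval -1.67 to 0.26). Without P60_KO_2 the KO and TG difference was -1.34 (adjusted p = 0.0634) and the TR and KO difference 0.63 (adjusted p = 0.480), so that both calls were lost without this array. The KO and TG call was lost as well without P60_TG_1 (-2.05, adjusted p = 0.0676), with scan day as a random block (-2.39, adjusted p = 0.0810) and in a fit on these groups alone (adjusted p = 0.383). The TR and KO call was also lost without P60_TR_1 (1.76, adjusted p = 0.166) or P60_TR_2 (1.76, adjusted p = 0.0634), and under 6 of the other settings given in the closing section.

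Dpep1 went the other way, with KO 2.56-fold higher than TG (log2 difference 1.36 ± 0.37, adjusted p = 0.0379, limma). This call was lost without P60_TG_2, where the difference was 0.60 (adjusted p = 0.369), without either KO array (adjusted p = 0.111 and 0.151), and under 5 of the other settings given in the closing section. TR and KO differed by -0.67 (95% interval -1.46 to 0.12) and TR and TG by 0.69 (-0.10 to 1.48). For Aldh1a1 the 3 differences were -0.16 between KO and TG (95% interval -0.74 to 0.41), 0.01 between TR and KO (-0.56 to 0.59) and -0.15 between TR and TG (-0.72 to 0.42). These intervals are narrowed by the P4 arrays, which had no spread at the floor, and do not show that the mutants were equal. The 2 P60 TR arrays alone read 1705 and 772. For Mup5 the 3 differences were -3.50 (-6.10 to -0.90, adjusted p = 0.0931), 1.39 (-1.20 to 3.99) and -2.11 (-4.70 to 0.49). Without P60_KO_1 the KO and TG difference of Mup5 was -4.85, with P60 KO left as P60_KO_2 alone. That array read 58.1, close above the floor. Without P60_KO_2 the difference was smaller than over all arrays.

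**Figure D4:**
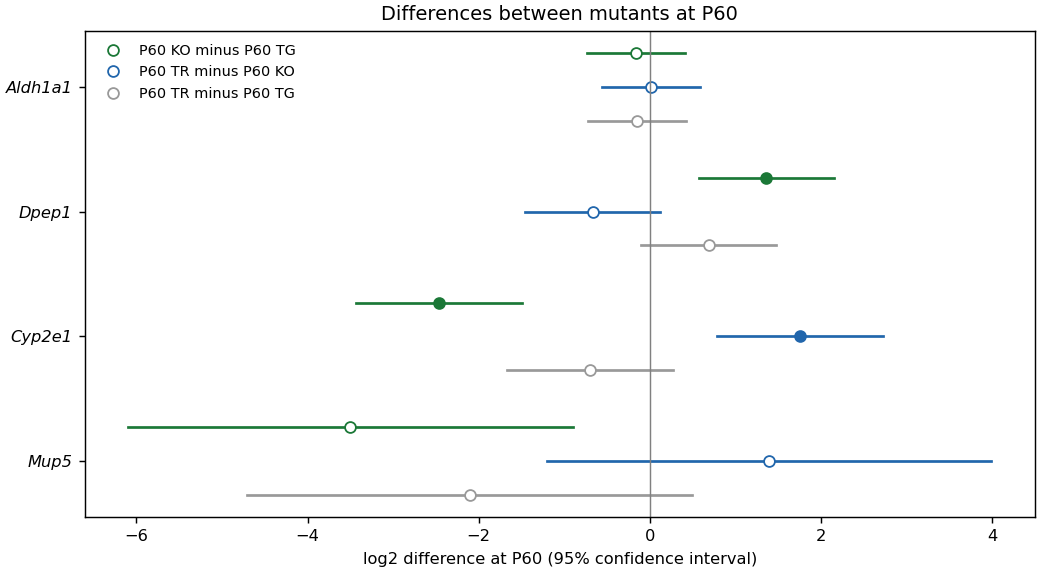
Log2 differences between mutants at P60 with 95% confidence intervals, for KO minus TG, TR minus KO and TR minus TG. The Aldh1a1 intervals are narrowed by P4 arrays that were all set to the floor. Filled points passed the adjusted threshold: Dpep1 at 1.36 and Cyp2e1 at -2.46 for KO minus TG, and Cyp2e1 at 1.76 for TR minus KO.

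Whether the rises themselves differed was tested as the interaction of age and genotype. The rise of Cyp2e1 was smaller in KO than in TG by 2.68 on the log2 scale (difference of rises -2.68 ± 0.59, adjusted p = 0.0144, limma), in a contrast that called 8.32% of all probe sets. It was -1.55 (adjusted p = 0.0538) without P60_KO_2 and -2.26 (adjusted p = 0.0722) without P60_TG_1. For the other 3 genes the KO and TG difference of rises missed the threshold, at 1.02 (95% interval -0.00 to 2.04) for Dpep1, -0.16 (-0.90 to 0.58) for Aldh1a1 and -3.50 (-6.85 to -0.15) for Mup5. All KO and TG arrays lay at the floor at P4 for Aldh1a1 and Mup5, so for them this repeats the P60 difference. The comparison of TR with KO called 0 of the 4 genes and 3.39% of all probe sets, with Cyp2e1 at 1.57 (adjusted p = 0.131). The comparison of TR with TG called 0 of the 4 and 1.2% of all, with Mup5 at -3.49 (adjusted p = 0.331). In each of these, 1 of the 4 genes had an unadjusted p under 0.05 in limma. Without P60_KO_1 the TR and KO difference of rises for Cyp2e1 was 2.69, with P60 KO left as P60_KO_2 alone, the array that stood apart. Without P60_KO_2 it was smaller than over all arrays.

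By mean, the order of the 4 groups at P60 was the same for Aldh1a1 and Mup5 and differed for Dpep1 and Cyp2e1. For Aldh1a1 it ran WT, TG, TR, KO from high to low by mean, with overlapping arrays between the neighbouring mutants. WT did not overlap TG but did overlap TR, where P60_TR_1 (1705) lay above P60_WT_1 (1440.5). For Dpep1 it ran KO, WT, TR, TG, where KO overlapped WT and TR overlapped TG. For Cyp2e1 it ran TG, WT, TR, KO, where only TG and WT overlapped. For Mup5 it ran WT, TG, TR, KO, and all neighbours overlapped.

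The summed markers of fat cells were, like Cyp2e1, lowest in KO at P60. Of 28 listed adipocyte genes 22 were on the array, and their summed index was 9706 to 13764 in P60 KO, 18255 to 20594 in P60 TG, 14220 to 17394 in P60 TR and 17336 to 24563 in P60 WT, against 6557 to 9710 over the P4 arrays. The KO arrays lay below all other P60 arrays, as they did for Cyp2e1. This order was not particular to fat cells. Retinoid genes summed to 6777 and 6819 on the KO arrays, and the next lowest P60 array, P60_TG_1, had 7742.5. Smooth muscle and pericyte genes summed to 3628 and 3884 in KO, with 3891 on P60_TG_2, the next lowest. Adipoq, the adipocyte hormone adiponectin, had an index of 991 and 268 in P60 KO, 2737 and 1695 in P60 TG, 1789 and 1570.2 in P60 TR, and 1759, 1498 and 4138 in P60 WT. Cidec, a lipid droplet protein, had 106 and 21.8 in P60 KO, 248 and 145 in P60 TG, 231 and 55.6 in P60 TR, and 225, 293 and 568 in P60 WT. At P60, Adipoq and Cyp2e1 were both lowest on P60_KO_2 and second lowest on P60_KO_1. Other listed genes did not follow this order. Me1, the malic enzyme that makes NADPH for fatty acid synthesis, had 1188 and 1758 in P60 KO, 1191 and 1183 in P60 TG, 1012 and 741 in P60 TR, and 1470.1, 1559 and 1649 in P60 WT. Slc2a4, the insulin-responsive glucose transporter, had 232 and 380.4 in P60 KO, against 196 to 261 on the other P60 arrays.

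Between P4 and P60, 4 of 21 tested adipocyte genes were called higher in KO, 8 in TG, 6 in TR and 8 in WT, and none was called lower. These are 19.0%, 38.1%, 28.6% and 38.1% of the genes, where 11.9%, 7.35%, 8.03% and 10.5% of all probe sets were called higher and 17%, 3.71%, 3.98% and 4.39% lower, in the same order of groups. The median log2 change of the list was 0.18 in KO, 0.34 in TG, 0.13 in TR and 0.35 in WT. Adipoq rose by at least 2.63 ± 0.56 (adjusted p = 0.00226) in KO, where 1 P4 array lay at the floor, 3.40 ± 0.56 (adjusted p = 0.000664) in TG and 3.67 ± 0.56 (adjusted p = 0.000386) in TR. Pparg, the nuclear receptor of fat cell differentiation, had 9.9 and 3.3 in P60 KO and 37.7 and 24.8 in P60 TR, all below the floor. In P60 TG it had 72.4 and 55.3, close above the floor. In P60 WT it had 37.3 and 33.6, below the floor, and 109. The size of its difference between KO and TG was therefore not measured. Pck1 was below the floor on every array. The part of fat cells in the Cyp2e1 and Mup5 values was not tested.

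**Figure D5:**
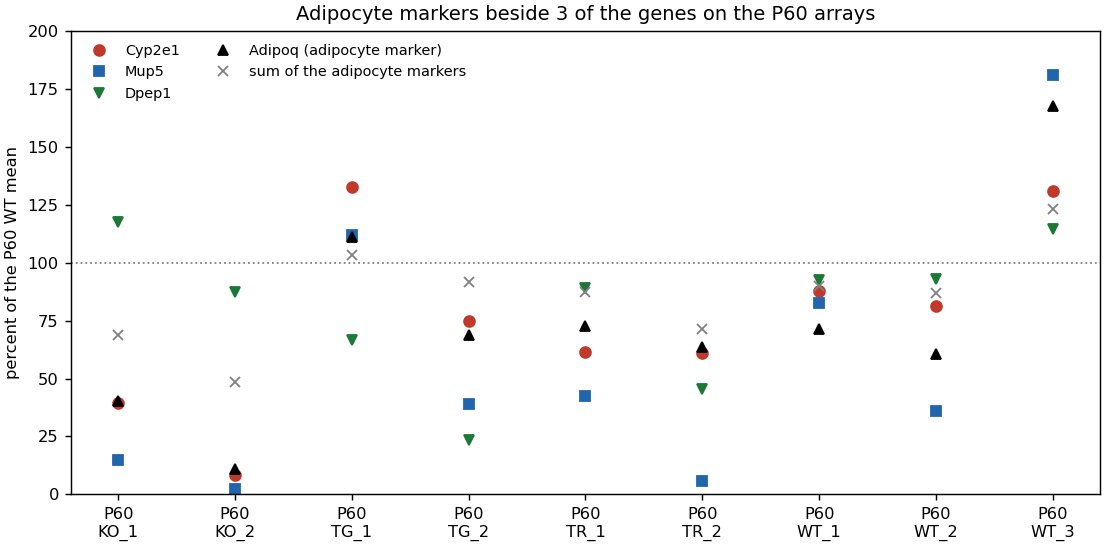
Cyp2e1, Mup5, Dpep1, Adipoq and the sum of 22 adipocyte markers on each P60 array, as a percent of the P60 WT mean. On the 2 KO arrays Cyp2e1 (39.6% and 8.30%), Mup5 and Adipoq are low together, while Dpep1 stands at 118% and 87.5%.

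Liver plasma protein genes summed to 3848 to 4817 over the P60 arrays and 3810 to 5541 over the P4 arrays. Of 21 tested, 1 was called higher with age in KO (Alb), 1 in TG (Hp, haptoglobin), 0 in TR, where 1 was called lower, and 1 in WT. Here 1 gene is 4.76% of the list, below the share of all probe sets called higher in each mutant. In TR 3.98% of all probe sets were called lower. Alb was 190 and 204 in P60 KO, where Mup5 was lowest. Genes of nerve fibroblasts and perineurium (25 on the array) summed to 36735 to 44951 in P60 KO, 36407 to 48925 in P60 TG, 45842 to 53368 in P60 TR and 50833 to 62095 in P60 WT. The P60 WT arrays lay above all KO and TG arrays, and the part of these cells in the results was not tested.

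The genes whose log2 values were most like each of the 4 genes over all 21 arrays were named by Pearson correlation. The arrays behind each correlation share the split into 2 ages and the authors' normalisation, and the values are descriptions with no test. For Aldh1a1 they were Nr1h3 (0.98), a nuclear receptor for oxysterols, Pcp4l1 (0.98), Srgn (0.98), the granule proteoglycan serglycin, and Ezh1 (0.97), a histone methyltransferase. Over the 9 P60 arrays alone the 4 values lay between 0.34 and 0.71.

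For Dpep1 they were Srgn (0.99), Ace (0.98), the angiotensin-converting enzyme, Nr1h3 (0.98) and Ezh1 (0.98). Ace kept 0.93 over the 9 P60 arrays and 0.95 over the 6 mutant ones. It had an index of 757 and 649.6 in P60 KO, 561 and 219.7 in P60 TG, 757 and 537 in P60 TR, and 769, 907 and 1260.4 in P60 WT. As for Dpep1, P60_TG_2 was the lowest of these arrays.

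For Cyp2e1 they were Thrsp (0.99), a regulator of fatty acid synthesis, Abcb1a (0.98), a drug efflux pump, Ces1d (0.98), a carboxylesterase, and Spock2 (0.97), a matrix proteoglycan. The probe sets of Ces1d and Spock2 are of the family type. Over the 9 P60 arrays they kept between 0.85 and 0.94. Thrsp had an index of 586 and 162 in P60 KO, 1381 and 1407 in P60 TG, 930.1 and 581 in P60 TR, and 774, 615 and 1369.8 in P60 WT. Ces1d had 143 and 61.1 in P60 KO, 439 and 247 in P60 TG, 294 and 270.2 in P60 TR, and 318, 316 and 825 in P60 WT. P60_KO_2 was the lowest P60 array for all of Thrsp, Abcb1a, Ces1d and Spock2.

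For Mup5 they were Cidec (0.89), Orm2 (0.89), an acute-phase lipocalin, Ephx2 (0.87), the soluble epoxide hydrolase, and H2-K1 (0.87), a class I antigen-presenting molecule whose probe set is also of the family type. Over the 9 P60 arrays they kept between 0.86 and 0.93. Orm2 had an index of 158 and 102 in P60 KO, 222 and 231 in P60 TG, 186 and 101 in P60 TR, and 174, 158 and 462 in P60 WT. As for Mup5, P60_WT_3 was the highest P60 array for Cidec, Orm2, Ephx2 and H2-K1.

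Other genes of the same pathways were counted with 1 probe set per gene, without the 4 genes themselves. In the retinoid list, which holds the enzymes, binding proteins and receptors around Aldh1a1, 19 of 33 genes were tested: 4 rose and 3 fell in KO, 3 rose in TG, 3 in TR and 4 in WT, with none lower in TG, TR or WT. The shares higher were 21.1%, 15.8%, 15.8% and 21.1% in KO, TG, TR and WT, against 11.9%, 7.35%, 8.03% and 10.5% of all probe sets, and 15.8% fell in KO, near the 17% of all. The median log2 change was 0.01 in KO, 0.08 in TG, 0.22 in TR and 0.10 in WT, against -0.01 to 0.01 over all probe sets. Aldh1a3, a sister enzyme that also makes retinoic acid, had 611 ± 33.6 in P60 KO, 518 ± 198 in P60 TG, 1040.4 ± 488 in P60 TR (SD, n = 2 each) and 489 ± 150.3 in P60 WT (SD, n = 3). It rose by 2.14 ± 0.33 in KO (adjusted p = 0.000233), 1.98 ± 0.33 in TG (adjusted p = 0.000882) and 3.37 ± 0.33 in TR (adjusted p = 9.44e-06).

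Rbp4, the plasma carrier of retinol, had 261 and 19.5 in P60 KO, 507 and 332 in P60 TG, 497 and 293 in P60 TR, and 671, 531 and 1449 in P60 WT. At P4 all KO and TR arrays and 2 of 3 TG arrays lay at the floor. Against it, Rbp4 rose by at least 2.58 ± 0.50 in TG (adjusted p = 0.00275) and at least 2.80 ± 0.50 in TR (adjusted p = 0.00151), with 1.13 ± 0.50 in KO (adjusted p = 0.10), where P60_KO_2 lay at the floor too. The KO arrays were the lowest at P60, as for Cyp2e1. Tgm2, a transglutaminase induced by retinoic acid, rose by 1.40 ± 0.34 in KO (adjusted p = 0.0051) and 1.55 ± 0.34 in TR (adjusted p = 0.00647), with 0.27 ± 0.34 in TG (adjusted p = 0.697).

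Of 51 cytochrome P450 enzymes and partners 32 were tested: 8 rose and 2 fell in KO, 4 rose in TG, 3 rose and 1 fell in TR, and 3 rose and 1 fell in WT. The shares higher were 25.0% in KO and 12.5% in TG, against 11.9% and 7.35% of all probe sets, and 9.38% in both TR and WT, near the 8.03% and 10.5% of all. In KO 6.25% fell, against 17% of all, and in TR and WT 3.12% each, against 3.98% and 4.39%. The median log2 change was 0.30 in KO, 0.02 in TG, 0.07 in TR and -0.00 in WT. Cyp2f2, which oxidises naphthalene, averaged 255 ± 82.5 in P60 KO, 357 ± 94.0 in P60 TG, 132 ± 81.1 in P60 TR (SD, n = 2 each) and 433 ± 72.1 in P60 WT (SD, n = 3), with every P4 array below the floor. Cyp4v3, a fatty acid hydroxylase, averaged 1323 ± 81.9 in P60 KO, 746 ± 112 in P60 TG, 549 ± 168 in P60 TR (SD, n = 2 each) and 1569 ± 114 in P60 WT (SD, n = 3). Both were called higher with age in all 3 mutants, Cyp4v3 by 2.99 ± 0.24, 2.26 ± 0.24 and 2.27 ± 0.24 in KO, TG and TR (adjusted p = 2.97e-07, 9.38e-06 and 1.49e-05). Cyp4b1 rose as well, by 2.19 ± 0.25, 1.79 ± 0.25 and 1.48 ± 0.25 (adjusted p = 1.56e-05, 0.00017 and 0.000998). Its probe set is of the family type. The low level of Cyp2e1 in KO was thus not shared by Cyp4v3, which had its highest mutant level there.

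Among 18 tested genes of aldehyde and ketone metabolism (29 listed), 2 rose and 3 fell in KO, 3 rose in TG, 6 rose and 1 fell in TR, and 8 rose in WT. The shares higher were 11.1% in KO, near the 11.9% of all probe sets, and 16.7%, 33.3% and 44.4% in TG, TR and WT, against 7.35%, 8.03% and 10.5%. In KO 16.7% fell, near the 17% of all, and in TR 5.56%, against 3.98%. Their median log2 change was 0.03 in KO, 0.15 in TG, 0.29 in TR and 0.52 in WT. Aldh2, the mitochondrial enzyme that clears acetaldehyde, averaged 4018 ± 3.68 in P60 KO, 3332 ± 343 in P60 TG, 2959.7 ± 18.9 in P60 TR (SD, n = 2 each) and 5075 ± 80.1 in P60 WT (SD, n = 3), and rose in all 3 mutants by 0.89, 0.57 and 0.91 (SE 0.17 each, adjusted p = 0.000971, 0.036 and 0.00197). The Aldh2 probe set is of the family type too. Akr1a1, an aldehyde reductase, fell by 1.19 in KO (log2 change -1.19 ± 0.23, adjusted p = 0.00125). Its index was 2396 on P60_KO_1 and 1069 on P60_KO_2, the array that stood apart, against 3608 to 3678 in P4 KO. Aldh7a1, of lysine breakdown, fell by 1.22 in KO (-1.22 ± 0.24, adjusted p = 0.00131) and by 0.83 in TR (-0.83 ± 0.24, adjusted p = 0.0313).

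Around Dpep1, 30 of 41 genes of glutathione, leukotriene and dipeptide metabolism were tested: 5 rose and 5 fell in KO, 5 rose in TG, 9 in TR and 10 in WT. The shares higher were 16.7%, 16.7%, 30% and 33.3% in KO, TG, TR and WT, against 11.9%, 7.35%, 8.03% and 10.5% of all probe sets, and 16.7% fell in KO, near the 17% of all. Their median log2 change was 0.00 in KO, 0.02 in TG, 0.30 in TR and 0.29 in WT. Gstt1, a glutathione transferase, had 211 ± 85.0 in P60 KO, 329.8 ± 158 in P60 TG, 362 ± 142 in P60 TR (SD, n = 2 each) and 647 ± 9.94 in P60 WT (SD, n = 3), and rose by at least 1.87, 2.06 and 2.67 in KO, TG and TR (SE 0.38 each, adjusted p = 0.00157, 0.0017 and 0.000214). These are lower bounds, since all 3 P4 arrays in TR and 2 of 3 in each of KO and TG lay at the floor. Mgst1, its microsomal counterpart, rose by 2.38, 1.49 and 2.65 (SE 0.38 each, adjusted p = 0.000288, 0.0179 and 0.000268). Gpx4, the peroxidase of membrane lipids, rose in TR (1.35 ± 0.20, adjusted p = 0.000268), with -0.07 ± 0.20 in KO (adjusted p = 0.845) and -0.33 ± 0.20 in TG (adjusted p = 0.334).

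Of 19 lipocalins and urinary proteins 13 were tested, and 3 rose in KO, 4 in TG, 2 rose and 1 fell in TR, and 4 rose in WT. The shares higher were 23.1%, 30.8%, 15.4% and 30.8% in KO, TG, TR and WT, against 11.9%, 7.35%, 8.03% and 10.5% of all probe sets. In TR 7.69% fell, against 3.98% of all. The median log2 change was 0.26 in KO, 0.19 in TG, -0.14 in TR and 0.33 in WT. Apod, a lipocalin of nerve fibroblasts, had 3375 and 835 in P60 KO, 4057 and 1725 in P60 TG, 5203 and 3323 in P60 TR, and 3176, 3163 and 4028 in P60 WT. It rose by 3.04, 2.85 and 3.98 in KO, TG and TR (SE 0.51 each, adjusted p = 0.000447, 0.00161 and 0.0001). Orm2, at the floor on 2 of 3 P4 arrays in KO and in TG, rose by at least 1.08 ± 0.37 in KO (adjusted p = 0.0388) and at least 2.01 ± 0.37 in TG (adjusted p = 0.00203), with 1.15 ± 0.37 in TR (adjusted p = 0.0551). Among the P60 arrays Apod was highest on P60_TR_1 and, like Mup5, lowest on P60_KO_2. Of 20 genes that respond to growth hormone or glucocorticoids, the hormones known to drive Mup genes in liver, 8 rose and 1 fell in KO, 7 rose and 1 fell in TG, 3 rose and 2 fell in TR, and 7 rose and 1 fell in WT, with medians of 0.48, 0.51, 0.11 and 0.60. The shares higher were 40.0%, 35.0%, 15.0% and 35.0%, against 11.9%, 7.35%, 8.03% and 10.5% of all probe sets, and 5.00% fell in KO, against 17% of all.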

How the data were processed

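Each of 21 Affymetrix MG_U74Av2 arrays measured a pool of sciatic nerves. Per the labels' protocols, the authors labelled RNA with biotin in 2 rounds of in vitro transcription, scaled arrays with a smoothing spline in dChip and deposited a model-based expression index, a linear intensity per probe set that can be negative. Per the labels, probe sensitivities came from 27 arrays (18 for the first P60 WT array). The dChip version and the probe model used are not stated in the labels. Scan signal rather than read depth limits precision, as does the number of arrays, and these limits were not ranked.

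The platform annotation names 1 gene for 10833 probe sets, several for 396 and none for 1193. Values under the 20th percentile (54.7) were raised to it and log2 was taken, and 10994 probe sets above it on at least 2 arrays were tested (1428 left out). Group means were fitted over all 8 groups in limma 3.58.1 (R 4.3.3) with eBayes and a mean trend (13 residual degrees of freedom), with Benjamini-Hochberg adjustment per contrast at 0.05. The fit was tested on simulated data with 200 changed probe sets. Nothing says that replicates came from separate litters, so p-values measure the spread between these pools. Contrasts holding the WT arrays that chose the genes are given without p. Sums over marker lists take negative values as 0.

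The 4 genes and all gene lists were chosen with earlier results of these data known. Named genes are the 4 probe sets most correlated with each gene over 21 arrays, the 3 genes of each pathway list with the smallest adjusted p in a mutant's rise, and markers a result turns on. Alternatives covered the floor, scaling, filter, spread model, scan day, replicate number and single arrays. Samples with the same replicate number did not deviate together (median correlation 0.00448 over 66 pairs, against -0.0124 over 126 pairs of other numbers), so no pairing was used.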

Additional observations from a re-analysis of the deposited data

Results flagged for a closer look

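The rise of Cyp2e1 with age stood out because it differed between genotypes in a test of the difference itself. It was -2.68 ± 0.59 on the log2 scale in KO relative to TG (adjusted p = 0.0144, limma), with P60 values of 1681 and 353 in KO and 5647 and 3186 in TG. The difference leaned on single arrays, at -1.55 without P60_KO_2 and -2.26 without P60_TG_1. It missed the threshold in a fit on the compared groups alone.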

How the results depend on the processing

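Results were recomputed under 13 alternatives and without each array in turn, and the cause of a change was not tested. With scan day as a fixed block, which could not be estimated for contrasts with P60 TG, the Cyp2e1 rise was 2.25 in KO and 2.98 in TR, the Dpep1 rise in TR 3.84 and the Mup5 rise in TR -1.57. TR minus KO at P60 was then -0.56 for Aldh1a1, 1.33 for Cyp2e1 and -0.074 for Mup5, with -3.01 for the Mup5 rises. Probe sets called fell to 1212 for the KO rise, 30 for the TR rise and 6 for TR against KO. With scan day as a random block, KO minus TG was 1.30 for Dpep1 and -2.39 for Cyp2e1 (rises -2.55), TR minus KO -0.048 for Aldh1a1 and 1.57 for Cyp2e1 (Mup5 rises -0.22), and 642 probe sets were called for the TG rise, 120 for KO against TG, 299 for TR against KO and 32 for TR against TG. Fitted on the compared groups alone, which leaves fewer arrays, the Cyp2e1 rise in KO (1.93), KO minus TG of Dpep1 (1.36) and Cyp2e1 (-2.46, rises -2.68) and TR minus KO of Cyp2e1 (1.76) missed the threshold. That fit called 1968 probe sets for the KO rise, 615 for TG and 90 for TR. It called 0 in the 3 contrasts between mutants, with 1559, 1022 and 1005 at an unadjusted p under 0.05 for KO against TG, TR against KO and TR against TG. Array weights cost Dpep1 (1.36) and Cyp2e1 (1.76) the same calls, gave -0.39 for TR minus KO of the Mup5 rises, and called 2626 for the TG rise, 583 for the TR rise, 451 for KO against TG and 102 for TR against KO. The Dpep1 call (1.36) was also lost with the 10th percentile floor or no filter, and the Cyp2e1 TR and KO call with no filter (1.76) or quantile scaling (1.55). TR minus KO of the rises changed sign for Mup5 at -0.32 and -0.059 with the 10th and 30th percentile floors, -0.14 with log2 of the index plus 50, -0.13 with quantile and -0.14 with median scaling, and for Dpep1 at 0.29 with the 10th percentile floor. For Aldh1a1 it was -0.20 with quantile scaling, also at P60, and -0.13 with median scaling (-0.12 at P60).

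Leaving out 1 array gave 0.80 to 3.05 for the Cyp2e1 rise in KO, 4.19 to 5.70 for Mup5 in TG and -0.013 to 2.92 for Mup5 in TR. KO minus TG ran over 0.60 to 2.11 for Dpep1, -3.59 to -1.34 for Cyp2e1 and -4.85 to -2.15 for Mup5. TR minus KO ran over -0.56 to 0.59 for Aldh1a1, 0.63 to 2.88 for Cyp2e1 and -0.074 to 2.86 for Mup5, and TR minus TG over -0.72 to 0.42 for Aldh1a1 and -0.069 to 1.44 for Dpep1. Of the rises, KO minus TG ran over -3.80 to -1.55 for Cyp2e1 and 0.26 to 1.77 for Dpep1, TR minus KO over -1.46 to 1.48 for Mup5, -0.56 to 0.59 for Aldh1a1, 0.44 to 2.69 for Cyp2e1 and -0.72 to 0.26 for Dpep1, and TR minus TG over -0.72 to 0.42 for Aldh1a1. Probe sets called ran over 1258 to 3230 (KO rise), 564 to 1028 (TG rise), 615 to 1951 (TR rise), 77 to 1651 (KO against TG), 84 to 1510 (TR against KO) and 28 to 168 (TR against TG). A group left with 1 array is assumed to vary like the others.

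With a replicate block no call on the 4 genes changed (KO minus TG 1.36 for Dpep1, -2.46 for Cyp2e1), and 889 probe sets were called for KO against TG, against 734 without it.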
